A study of Mus musculus with 24 samples.

Results

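Splenic B cells lacking NFATc1 were compared after 16 h and after 8 h with anti-IgM, which engages the B cell receptor in place of antigen. The arrays labelled KO at these times are 6 of the 24 in the study, 3 biological replicates at each time, chosen by their labels alone. The KO mice carried Nfatc1 alleles with exon 3 between loxP sites and mb1-cre, a Cre recombinase driven by the Cd79a gene and therefore active from early B cell stages. The labels give exon 3 as the part that encodes the calcineurin-binding regulatory region. All mice were C57BL/6, most of them 6 to 8 weeks old, and KO and control (WT) cells were also taken at 0 and 3 h. The labels do not state whether WT mice carried mb1-cre or the floxed alleles, whether mice were pooled for an array, or whether arrays of 1 replicate number came from the same mouse. In the order the labels give, cells were stimulated first and B cells were then enriched with beads. Each array is an Affymetrix expression array read out as MAS5 signals, and every level below is a log2 signal, on which a difference of 1 is a doubling.

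A resting B cell that is stimulated through its receptor leaves quiescence, grows and, if the signal lasts, enters the cell cycle. Cyclin D and E kinases inactivate the retinoblastoma proteins in G1, E2F factors then switch on the genes of DNA replication, and mitotic genes follow later in the cycle. NFATc1 is a transcription factor that moves to the nucleus when calcineurin removes its phosphates after a calcium signal, and B cell receptor ligation is among the classic triggers. The step from 8 to 16 h is described here by RNA signals, in cells labelled as lacking NFATc1. The cell cycle stage of these cells was not tested.

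Promoter letters are shown for 5 genes from the replication, mitosis, interferon and cholesterol lists described below, from the RefSeq promoter table on GRCm38.p6, as the 150 bases that precede the annotated start. Capitals mark the E2F motif TTTGGCGC in Mcm6, the CHR motif TTTGAA (cell cycle genes homology region, known for late cell cycle genes) in Cdk1, the core TTTCNNTTT of the interferon-stimulated response element in Rsad2 and Ifit1, and a sterol element of the form TCACNCCAC in Hmgcs1, each searched on both strands.
Mcm6 (chr1:128359706-128359855, minus strand): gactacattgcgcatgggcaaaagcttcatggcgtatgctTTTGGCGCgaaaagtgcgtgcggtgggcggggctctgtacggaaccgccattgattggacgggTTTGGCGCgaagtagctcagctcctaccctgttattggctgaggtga
Cdk1 (chr10:69352913-69353062, minus strand): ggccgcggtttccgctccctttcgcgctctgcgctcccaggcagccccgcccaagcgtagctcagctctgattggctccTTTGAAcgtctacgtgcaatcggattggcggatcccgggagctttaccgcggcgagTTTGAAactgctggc
Rsad2 (chr12:26456453-26456602, minus strand): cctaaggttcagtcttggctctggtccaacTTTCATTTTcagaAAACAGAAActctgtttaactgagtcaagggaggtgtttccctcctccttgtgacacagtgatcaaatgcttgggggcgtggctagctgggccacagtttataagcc
Ifit1 (chr19:34640739-34640888, plus strand): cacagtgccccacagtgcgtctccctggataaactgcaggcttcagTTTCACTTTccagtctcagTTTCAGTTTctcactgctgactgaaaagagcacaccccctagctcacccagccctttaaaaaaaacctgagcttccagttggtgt
Hmgcs1 (chr13:119690201-119690350, plus strand): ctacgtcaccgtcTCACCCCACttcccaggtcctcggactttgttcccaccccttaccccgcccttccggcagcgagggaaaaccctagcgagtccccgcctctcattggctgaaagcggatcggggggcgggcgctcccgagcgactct
Mcm6, a subunit of the replicative helicase, and Cdk1, the kinase of mitotic entry, were higher at 16 h, while the antiviral genes Rsad2 and Ifit1 and the cholesterol synthesis gene Hmgcs1 were lower.

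In the 300-base promoters of all 11530 tested genes that the table holds, an E2F motif (TTTCCCGC or TTTGGCGC) was present in 3.13%. It was present in 12 of the 34 DNA replication genes with a promoter (35.3%), in 9.82% of the genes that rose and in 2.36% of those that fell. The CHR letters occurred in 14.8% of all tested promoters, in 20.4% of those of genes that rose and in 13% of those of genes that fell. They occurred in 18 of 25 mitosis genes (72%), but in 6 of the 11 called ones (54.5%). The response element core, a motif added after the values were seen, occurred in 9.69% of all tested promoters. It occurred in 13.1% of those of genes that rose and in 13% of those of genes that fell. Of the interferon response genes 8 of 11 held it, and 3 of the 5 called ones with a promoter. A CCAAT box was found in 42.2% of all promoters, 49.8% of those of genes that rose and 48% of those of genes that fell. It was found in 14 of 16 cholesterol and fatty acid synthesis genes, 20 of 25 mitosis and 7 of 9 MHC class II genes. Replication had it in 21 of 34, quiescence in 9 of 16 and interferon response in 5 of 11 genes. The sterol element was found in 1.47% of all promoters and in 1 of the 16 cholesterol and fatty acid synthesis genes. An NFAT core with its flank, GGAAAAT, was found in 4.05% of all tested promoters, 3.27% of those of genes that rose and 3.15% of those of genes that fell. The E-box CACGTG was found in 11% of all tested promoters, 11.6% of those of genes that rose and 16.5% of those of genes that fell. These are counts of letters and not of bound sites.

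The arrays carried the genotype and cell labels as follows. Nfatc1 has 5 probe sets, and whether any of them lies in exon 3 was not determined here, so their signal does not check the deletion. The brightest gave 13.07, 13.28 and 13.16 in KO cells at 8 h and 12.40, 12.48 and 12.70 at 16 h. In WT cells it gave 12.35, 12.29 and 12.71 at 8 h and 11.88, 11.65 and 12.08 at 16 h. The signal was therefore present in both genotypes, and it fell by 0.64 from 8 to 16 h in KO cells (SE 0.13, limma adjusted p = 0.00305). The other 4 probe sets did not pass the test, with differences from -0.26 to 0.32 (limma adjusted p 0.347 to 0.975, adjusted over all probe sets).

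B cell markers were bright at both times: the summed signal of 8 genes, among them Cd79a, Cd79b, Ms4a1 and Pax5, was 82083 to 99937 at 8 h and 78618 to 88519 at 16 h. The 8 tested T cell markers summed to 1022 to 1438 at 8 h and 576 to 822 at 16 h, and 1 of them, Il7r, was called, lower. Of these 8, Cd3e, Cd3d and Cd3g stayed under the 40th percentile of their own array in all 6 arrays, and this percentile, 5.38 to 6.42 over the 24 arrays, is called the filter level below. The 8 NK cell markers summed to 360 to 769 and to 299 to 657, none of them was under the filter level in all 6 arrays, and limma called 0 (0 at an unadjusted p under 0.05). Of 9 macrophage and monocyte markers 8 had a difference above 0 and 1 was called, Adgre1 (F4/80), which rose by 1.27 (limma adjusted p = 0.00255), from 9.08, 8.89 and 8.96 to 10.40, 10.50 and 9.85. The call of Adgre1 was lost without KO replicate 2 at both times (limma adjusted p = 0.0695). The summed signal of the 9 markers was 2193 to 4538 at 8 h and 3440 to 9785 at 16 h. Their median difference was 0.37 in KO and -0.14 in WT cells. Neutrophil markers summed to 550 to 2519 and to 703 to 4493, with 0 of 8 called by limma, 0 at an unadjusted p under 0.05, and 6 of 8 differences above 0, from -1.14 for Elane to 1.78 for Camp. The median difference of the neutrophil markers was 0.78 in KO and 0.02 in WT cells. The part of cells other than B cells in the results was not tested. In such bulk samples fewer cells of a type and less RNA per cell cannot be told apart.

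KO replicate 2 had the highest filter levels of the 24 arrays, 6.23 at 8 h and 6.42 at 16 h, against 5.38 to 5.75 in the other 4 KO arrays of these times. The ratio of 3' to 5' Gapdh probe sets, a measure of RNA integrity, was -0.49 to -0.26 at 8 h and -0.48 to -0.29 at 16 h on the log2 scale. The same ratio for Actb was 1.08 and 0.91 in KO replicate 2 at 8 and 16 h, the highest of the 24 arrays, against 0.55 to 0.64 in the other 4 KO arrays of these times. The part of this replicate's RNA quality in the results was not tested. WT replicate 2 had low Xist at every time, down to 4.22, whereas the 6 KO arrays compared here had 11.48 to 12.14. Counts without these replicates are given where they differ by over 1.5 times.

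Between 8 and 16 h, 343 genes rose and 324 fell in KO cells among 14318 tested (2.4% and 2.26%, together 667 or 4.66%, limma adjusted p under 0.05). The median difference was 0.74 among those that rose and -0.79 among those that fell, against 0.03 over all genes. A change of at least 2-fold, with signals under the filter level raised to it, was reached by 107 of the genes that rose and by 88 of those that fell. Of the 667 genes, 660 had no overlap between the 3 arrays at 8 h and the 3 at 16 h, where 19% of all tested genes had none (10.1% higher and 8.97% lower at 16 h). The count was 416 without KO 8 h replicate 1, 380 without KO 16 h replicate 1 and 236 without KO replicate 2 at both times. Scaling each array to a common median gave 217, and among the 97 called genes checked one by one it ended those of Blk, Bcl2l1, Cd81, Timd2, Socs3, Homer1, Nfatc1, Psat1, Slc1a5, Pgam1, Prdm1, Klf2, Fdps, Hmgcs1, Dhcr7, Ccne2, Ttk, Ifit2, Zmat3, Mzb1, Yars, Sh3bp4, Mxd4, Itgb3, Atf4, Pdia6 and Xbp1, besides those stated with their lists. Of the same 97 genes, 40 lost their call without at least 1 of the 6 KO arrays, and 7 lost it whichever of these arrays was left out: Dhcr7, Homer1, Psma1, Psmb1, Socs3, Timd2 and Zmat3.

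Of the 26 pathway lists, DNA replication and nucleotide synthesis had the largest share of genes that rose: 30 of its 39 tested genes rose, 0 fell, and all 39 had a difference above 0, also under each other scaling. The median difference was 1.14, a little over a doubling. Mcm5, a subunit of the helicase that opens the origin, stood at 11.77, 11.30 and 11.45 at 8 h and at 13.51, 13.52 and 13.05 at 16 h. The groups were far apart, and the rise was 3.62-fold (log2 1.86, SE 0.16, limma adjusted p = 7.44e-07). The other helicase subunits Mcm2, Mcm3, Mcm4, Mcm6 and Mcm7 rose by 1.01 to 1.57.

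Cdc6, which loads the helicase onto origins, went from 6.32, 6.57 and 6.61 to 9.17, 9.36 and 8.65, a 5.9-fold rise (SE 0.40 on the log2 scale, limma adjusted p = 0.000404). The polymerase and primase genes Pola1, Prim1, Prim2, Pold1 and Pole, the clamp loader genes Rfc4 and Rfc5 and the nick-sealing ligase Lig1 rose by 0.96 to 1.82. Rrm2, the regulated subunit of ribonucleotide reductase, stood at 8.54, 8.48 and 8.50 and then at 10.36, 10.83 and 10.23, a 3.92-fold rise (limma adjusted p = 3.47e-06). Tk1, the thymidine kinase of S phase, went from 8.04, 7.52 and 7.71 to 9.72, 10.03 and 9.35. Neither Rrm2 nor Tk1 had an 8 h array within the range of the 16 h arrays.

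The 9 members that were not called included Pcna, the sliding clamp, at 0.23, Cdt1, the licensing factor, at 0.23, and Orc1, an origin recognition subunit, at 1.71 (limma adjusted p = 0.188). Some genes were as bright in unstimulated cells as at 16 h. Rrm2 had 10.36, 10.23 and 10.21 at 0 h, which overlaps its 16 h arrays. Dtl, which is outside the list and encodes an adaptor that marks replication proteins for destruction, rose 3.98-fold in this step and averaged 9.71 at 0 h, 7.43 at 8 h and 9.42 at 16 h. Mcm5 differed from these: its 0 h arrays, 12.01, 11.94 and 11.75, all lay below the lowest 16 h array.

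**Figure D1:**
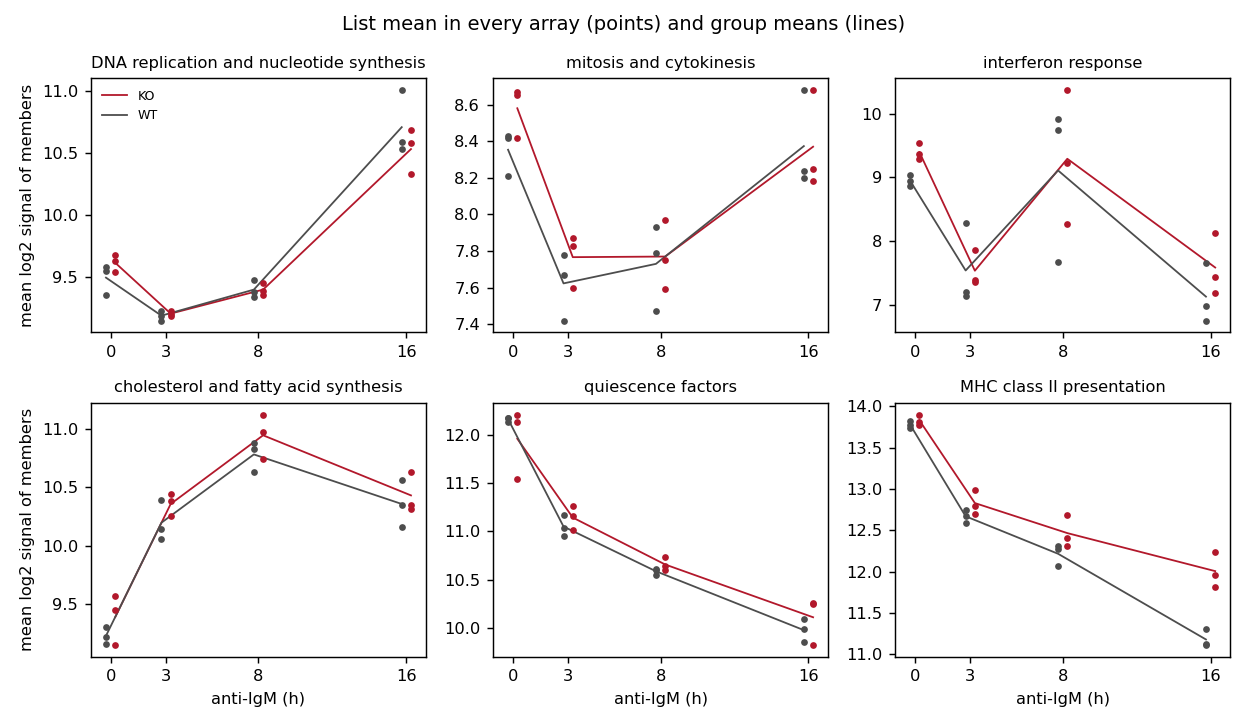
Mean log2 signal of the tested members of 6 gene lists (y axis) against hours of anti-IgM (x axis), 1 point per array, red for KO and grey for WT, with lines through the group means. In KO cells the replication list runs from 9.36 to 9.45 at 8 h and from 10.33 to 10.69 at 16 h, above its 0 h arrays, while the mitosis list at 16 h, 8.18 to 8.68, overlaps its 0 h arrays.

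Other genes of replication forks and repair were among the 15 largest rises. Dscc1, a subunit of a clamp loader linked to sister chromatid cohesion, rose 4.78-fold, the exonuclease Exo1 4.2-fold, the checkpoint mediator Clspn 4.07-fold and the chromatin remodeller Hells 3.72-fold (limma adjusted p 2.29e-06 to 0.000472). Hells was bright, with 9.71, 9.46 and 9.35 at 8 h and 11.69, 11.53 and 10.99 at 16 h. The histone list had 9 tested members and 4 that rose: the chaperones Asf1b and Nasp, the acetyltransferase Hat1 and Slbp, which binds the stem-loop of histone mRNA, by 0.39 to 0.90. With arrays scaled to a common median 0 of these 4 were called.

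Among G1 cyclins, kinases and inhibitors, 6 of 21 tested genes rose and 1 fell. Ccne1, cyclin E1, stood at 7.66, 7.64 and 7.48 at 8 h and at 9.41, 9.75 and 9.14 at 16 h (3.59-fold, limma adjusted p = 0.000403). Ccnd2, the cyclin D2 of B cells, went from 12.31, 11.59 and 11.89 to 13.53, 13.54 and 13.26 (2.86-fold, limma adjusted p = 0.000134). The activators E2f1 and E2f2 rose by 1.05 and 1.39, Ccne2 by 1.17 and the retinoblastoma relative Rbl1 by 0.78. E2f2 stayed below its unstimulated level in KO cells, with an average of 9.81 at 0 h and 8.09 at 16 h. All 0 h arrays of E2f2 lay above all its 16 h arrays. In WT cells E2f2 changed by 0.47 and was not called (limma adjusted p = 0.484). The KO call of E2f2 was lost in 6 of 15 alternative settings. Cdkn1a, the inhibitor p21, fell by 1.37, from 8.09, 8.27 and 9.11 to 7.45, 7.46 and 6.44 (limma adjusted p = 0.0316). The kinases Cdk4 and Cdk6 had differences of -0.01 and -0.30 and were not called. Without KO 16 h replicate 2 the number that rose was 3, and with a common median it was also 3.

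Mitosis and cytokinesis genes moved less evenly, with 11 of 30 tested genes higher, 0 lower and a median difference of 0.53. Kinetochore and checkpoint genes led: Nuf2 and Ndc80, which attach microtubules, rose by 1.67 and 1.65, and the checkpoint genes Ttk, Bub1 and Mad2l1 by 1.25, 1.25 and 1.23. Cdk1 stood at 8.10, 8.27 and 7.75 at 8 h and at 8.99, 9.55 and 8.89 at 16 h (log2 difference 1.10, limma adjusted p = 0.00516). Other genes of the list were not called, among them Ccnb2 (cyclin B2) at -0.01, Plk1 at 0.38, Cenpf at 0.26 and Ube2c at -0.25. Nuf2 at 0 h, with 7.50, 7.53 and 7.88, overlapped its 16 h range of 7.71 to 8.31. The number that rose was 6 without KO 8 h replicate 1, 5 without KO 16 h replicate 2, 6 without KO 8 h replicate 3 and 3 without KO replicate 2 at both times.

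**Figure D2:**
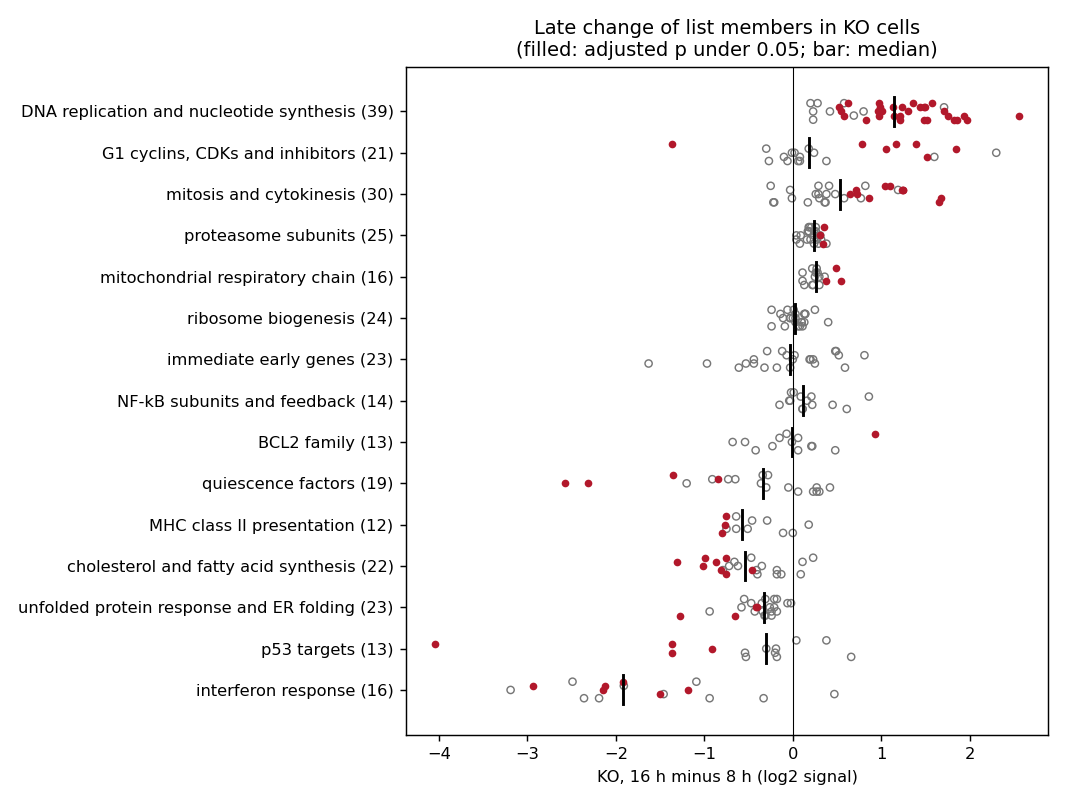
Difference between 16 h and 8 h in KO cells, in log2 signal (x axis), for each tested member of 15 gene lists (rows, with the number tested), filled where the limma adjusted p was under 0.05 and with a bar at the list median. All 39 replication genes lie to the right of 0 with a median of 1.14, and 15 of 16 interferon response genes lie to the left with a median of -1.92.

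Genes of energy metabolism and protein turnover changed by small amounts. As deposited, the respiratory chain and proteasome lists had larger shares called higher than the 2.4% of all tested genes. All 16 respiratory chain genes had a difference above 0, with a median of 0.27 and 3 called (Ndufa9, Ndufv1 and Cox5a, by 0.37 to 0.54), of which 1 was called after quantile normalization and 0 with a common median. All 25 proteasome genes were above 0 in the deposited scaling, with a median of 0.24 and 3 called (Psmc6, Psma1 and Psmb1, by 0.31 to 0.35). After quantile normalization 22 of the 25 were above 0 and 0 were called, and with a common median 23 and 0. Pgam1, a glycolytic enzyme, rose by 0.70, the 1 called gene of 13 in its list, and 0 were called with a common median. Ribosome biogenesis had 0 of 24 genes called by limma (1 at an unadjusted p under 0.05) and a median difference of 0.03, which was -0.01 under either other scaling. Nop16, a nucleolar assembly factor, averaged 9.81 in unstimulated cells, 12.16 by 3 h, 11.67 at 8 h and 11.91 at 16 h.

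Of 17 activation and costimulation markers 2 rose (Icam1 and Cd44), 1 fell (Cd86) and 14 were not called. Icam1, an adhesion molecule, rose from 10.41, 10.53 and 10.20 to 11.50, 11.42 and 11.41, a gap larger than the spread of either group (2.09-fold, limma adjusted p = 0.000143). Cd44, a receptor for hyaluronan, rose 2.1-fold. Cd86, a ligand of CD28 on T cells, fell 2.82-fold, from 12.33, 12.20 and 11.89 to 10.40, 10.45 and 11.08 (limma adjusted p = 0.000182). Cd86 had averaged 9.91 at 0 h and 13.13 at 3 h, its highest group mean in KO cells. Of 20 B cell receptor signalling genes Cd81, a tetraspanin, rose (1.83-fold), Cr2 fell and 18 were not called. Timd2, also called TIM-2, rose from 6.04, 5.32 and 6.53 to 8.36, 8.95 and 8.58 (limma adjusted p = 0.0364), a call that was lost without any 1 of the 6 KO arrays. Ifitm2, a membrane protein that restricts viral entry, rose 4.53-fold, from 9.52, 9.51 and 9.95 to 11.29, 11.80 and 12.43, while the interferon response list went the other way.

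The chemokine receptor genes Cxcr4 and Ccr9 were among the 15 largest falls. Cxcr4, the receptor for the stromal chemokine CXCL12, stood at 12.08, 11.68 and 12.38 at 8 h and at 9.35, 9.09 and 10.30 at 16 h, a 5.53-fold fall (SE 0.39 on the log2 scale, limma adjusted p = 0.000362). Ccr9, a receptor for a gut chemokine, fell from 9.16, 8.97 and 9.72 to 4.32, 6.09 and 5.94. The 16 h mean of Ccr9 was under the filter level, so that it fell by 3.24 or more on the log2 scale (limma adjusted p = 1.61e-05). Its signals at 0 h, 6.07, 5.12 and 5.44, overlapped those at 16 h, and its 3 h mean was 9.81.

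In the quiescence list 4 of 19 tested genes fell, 0 rose and 15 were not called. These were Il7r, the interleukin-7 receptor chain (difference -2.57), Pik3ip1, an inhibitor of PI3-kinase (-2.32), S1pr1, the receptor for egress from lymphoid tissue (-1.35), and Klf2, a quiescence factor (-0.85). Il7r had 9.80, 9.54 and 8.90 at 8 h and 6.59, 6.68 and 7.26 at 16 h, with no overlap (limma adjusted p = 0.000347). These genes came to 8 h from different levels: S1pr1 averaged 11.97 at 0 h and 10.59 at 3 h, Klf2 13.61 and 9.55, whereas Il7r averaged 7.09 and 11.18. Foxo1 and Btg1, a transcription factor and an antiproliferative gene, had differences of -0.28 and -0.05 and were not called.

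The follicular B cell marker list had 2 of 6 genes lower (Satb1 and Klf2) and the marginal zone list 3 of 9 (Cr2, Dtx1 and Mzb1). Cr2, the complement receptor CD21, went from 12.28, 12.59 and 12.28 to 11.08, 11.20 and 10.47 (2.76-fold lower, limma adjusted p = 1.38e-05), and its 0 h level was 13.45 to 14.02. Blk, a Src family kinase of B cells, fell by 0.64, the 1 called gene of 8 B cell markers. Ltb, lymphotoxin beta, fell 3.14-fold, from 10.21, 9.85 and 10.01 to 8.33, 8.31 and 8.48 (limma adjusted p = 5.27e-06).

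**Figure D3:**
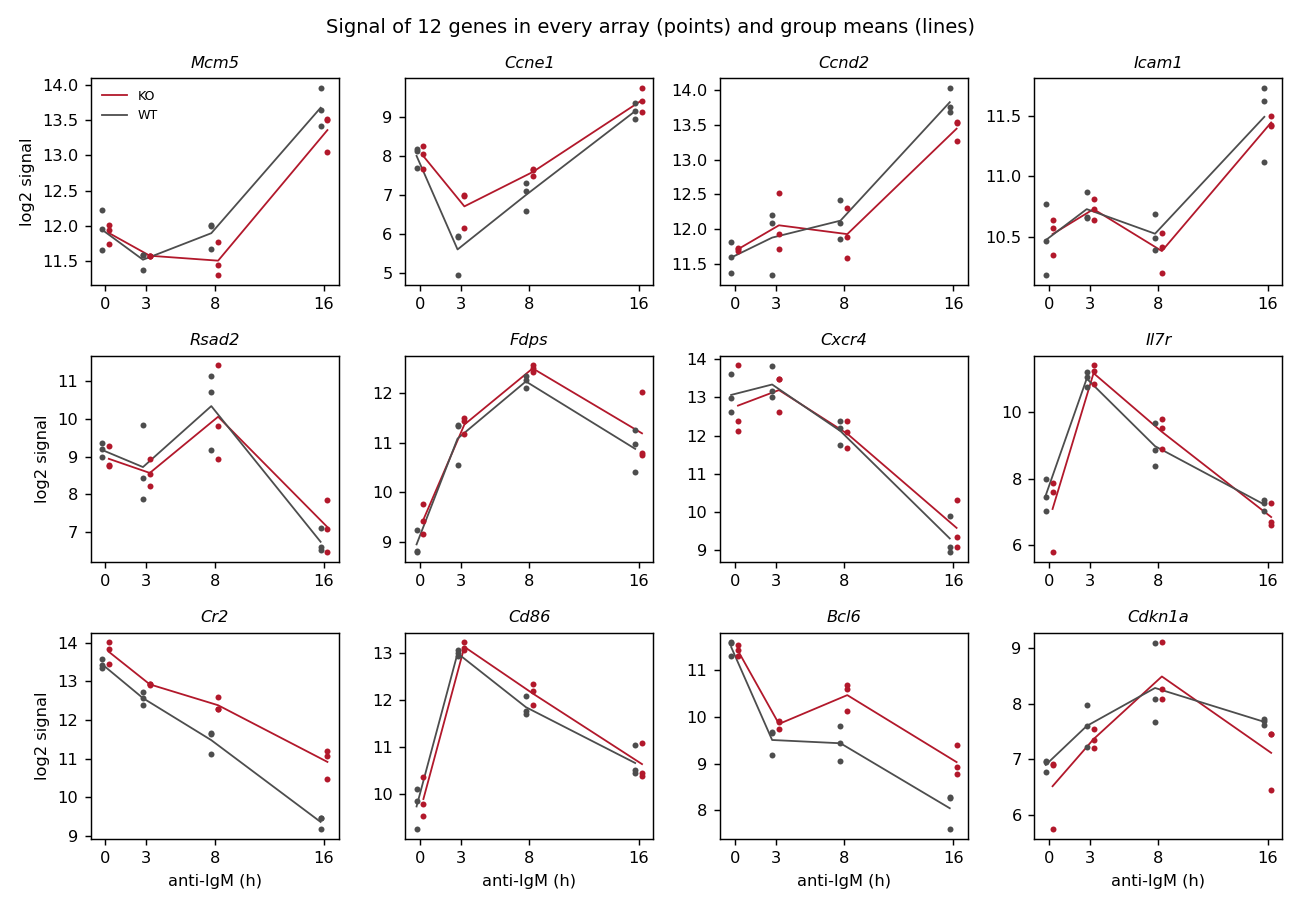
Log2 signal (y axis) of 12 genes against hours of anti-IgM (x axis), 1 point per array and lines through the group means, red for KO and grey for WT. Between 8 and 16 h Mcm5, Ccne1, Ccnd2 and Icam1 rise in KO cells without overlap, and the other 8 genes fall, Cxcr4 from 11.68 or more to 10.30 or less.

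Interferon response genes had the largest median change of any list with a called gene, -1.92, with 15 of 16 differences below 0, 6 genes called lower and 0 higher. Rsad2 (viperin), whose promoter letters are shown above, stood at 11.44, 8.93 and 9.81 at 8 h and at 7.85, 7.06 and 6.45 at 16 h (7.66-fold lower, SE 0.53 on the log2 scale, limma adjusted p = 0.00156). The 8 h replicates differed among themselves by more than 2 on the log2 scale, and replicate 1 was the highest. Oasl1, an OAS-like antiviral protein, also had its highest 8 h signal in replicate 1, with 11.56, 9.73 and 10.26 at 8 h and 8.96, 7.89 and 8.26 at 16 h. Ifit1 and Ifit2, which bind viral RNA, Oas2, a sensor of double-stranded RNA, and Irf9, the DNA-binding subunit of ISGF3, also fell. The list mean was 10.37, 8.27 and 9.23 at 8 h and 8.13, 7.44 and 7.18 at 16 h. The number called was 1 without KO 8 h replicate 1, 9 without KO 8 h replicate 2, 2 without KO 16 h replicate 2 and 3 without KO 16 h replicate 3. Cxcl10, an interferon-induced chemokine outside the list, fell by 1.65.

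Cholesterol and fatty acid synthesis had 8 of 22 tested genes lower and 0 higher, with a median of -0.54. Fdps, farnesyl diphosphate synthase, had 12.50, 12.43 and 12.57 at 8 h and 10.76, 10.79 and 12.02 at 16 h (2.47-fold lower, limma adjusted p = 0.00474). The 3 arrays at 16 h lay below all at 8 h, with replicate 3 closest. Fdft1, squalene synthase, Hmgcs1, which makes HMG-CoA, and Dhcr7, which completes cholesterol, fell, with differences of -1.01, -0.99 and -0.87. The list mean was 9.15 to 9.57 at 0 h, 10.74 to 11.12 at 8 h and 10.31 to 10.63 at 16 h, so that the 16 h arrays lay between the others. The regulators Srebf1 and Srebf2 were at -0.18 each and not called. The number called was 5 without KO 8 h replicate 1 or without KO 16 h replicate 2, 4 without KO 16 h replicate 1 or without KO 8 h replicate 2, and 1 with a common median.

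Stress pathways also declined in part. In the unfolded protein response and ER folding list 4 of 23 genes fell and 0 rose, with every difference below 0 as deposited and 1 of 23 above 0 after quantile normalization. Those that fell were Ddit3 (CHOP), a factor of the stress response, at -1.27, its activator Atf4 at -0.65, the disulfide isomerase Pdia6 at -0.42 and the secretory factor Xbp1 at -0.40. With a common median 1 was called. Of 13 p53 targets 4 fell: the kinase gene Plk2, the stress protein gene Trp53inp1, the RNA-binding Zmat3 and Cdkn1a. Plk2 went from 8.15, 8.80 and 9.29 to 4.41, 2.93 and 6.78, with its 16 h mean under the filter level, so that it fell by 2.43 or more. Its 1 other probe set had a difference of opposite sign that was not called. Leaving out KO 8 h replicate 2, KO 8 h replicate 3 or KO 16 h replicate 3 left 2 of the p53 target calls each. The amino acid genes Psat1, of serine synthesis, and Slc1a5, a glutamine transporter, fell, at -0.74 and -0.63, 2 of 17 in their list.

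Of 19 germinal centre and plasma cell regulators 4 fell, 1 rose and 14 were not called, and with a common median 2 fell and 1 rose. Bcl6, the germinal centre repressor, had 10.68, 10.12 and 10.59 and then 8.92, 9.39 and 8.78 (2.7-fold lower, limma adjusted p = 0.000177). Pou2af1, a B cell coactivator, at -0.81, Prdm1 (Blimp-1), the plasma cell repressor, at -0.87 and Xbp1 at -0.40 fell as well. Id3, an inhibitor of E proteins, rose by 0.99, from 11.41, 11.17 and 11.60 to 12.24, 12.46 and 12.46. Of 13 BCL2 family genes 1 was called: Bcl2l1, which encodes the survival protein BCL-XL, rose by 0.93, from 9.38, 9.86 and 9.66 to 10.71, 10.51 and 10.48 (limma adjusted p = 0.00859).

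Early response genes gave no calls in this step. Limma called 0 of 23 immediate early genes (3 at an unadjusted p under 0.05) and 0 of 14 NF-kB subunits and feedback genes (1 at that level). Egr3 stood at 13.17, 13.60 and 13.31 at 8 h and at 13.82, 14.07 and 13.74 at 16 h (difference 0.52, limma adjusted p = 0.12), and Rel at 10.81, 10.86 and 11.50 and then 11.73, 11.65 and 12.38 (0.86, limma adjusted p = 0.0501). Both pairs of groups were separate without passing the test. Socs3, a feedback inhibitor of cytokine receptors, rose by 1.79 from near the filter level (limma adjusted p = 0.0374), a call that was lost without any 1 of the 6 KO arrays. Among NFAT and calcineurin genes Homer1, a scaffold protein, rose by 0.54, and Nfatc2 and Nfatc3 had differences of 0.20 and -0.16 and were not called.

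MHC class II presentation fell in part, with 3 of 12 tested genes lower and 0 higher in KO cells and a median of -0.57. H2-DMa, a chain of the peptide-loading molecule, went from 11.21, 11.28 and 10.78 to 10.26, 10.58 and 10.04, and H2-Eb1 and H2-Ob fell, at -0.77 and -0.75 (limma adjusted p 0.00255 to 0.00493). The invariant chain Cd74 was at -0.11 and not called. In WT cells 9 of the 12 fell, with a median of -1.07, and the difference between the changes was above 0 in all 12. That difference had an unadjusted p under 0.05 for 5 of the 12, against 2.46% of all genes, and none passed adjustment.

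The same step in WT cells, measured on other arrays, called 549 genes higher and 561 lower (3.83% and 3.92%, together 1110 or 7.75%). Called in both genotypes were 509 genes, all in the same direction, 279 higher and 230 lower, which is 76.3% of the KO genes and 45.9% of the WT genes. Of the 667 KO genes, 659 had the same sign in WT cells, where the median difference was 0.71 for those that rose and -0.75 for those that fell. Across the 6000 genes with a mean signal of at least 9 the KO and WT changes had a Pearson r of 0.87, and across all genes 0.41, a description over genes that share arrays. Whether same-numbered arrays of KO and WT cells resembled each other was not tested, so the KO and WT steps are not shown to be independent. The WT count was 624 without WT 16 h replicate 2 and 447 without WT replicate 2 at all times.

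**Figure D4:**
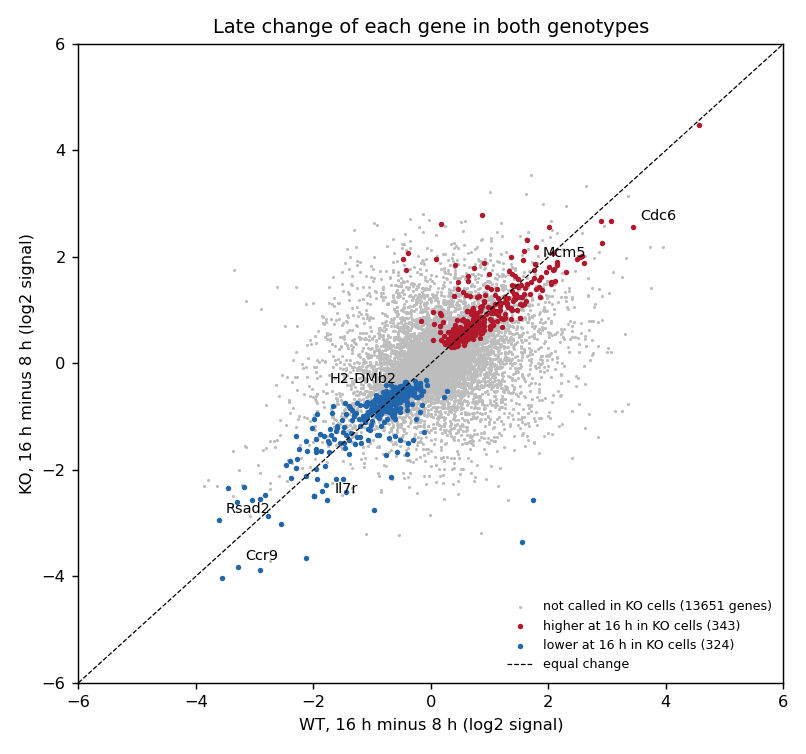
Difference between 16 h and 8 h in KO cells (y axis) against that in WT cells (x axis), both in log2 signal, 1 point per tested gene, red for the 343 genes called higher and blue for the 324 called lower in KO cells, with a dashed line of equal change. Of the 667 coloured points 659 have the same sign in both genotypes, and H2-DMb2 lies above the line.

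Asked directly, whether a change from 8 to 16 h differed between KO and WT cells, limma called 0 of 14318 genes (0%), with 352 at an unadjusted p under 0.05. The smallest p was that of H2-DMb2, a beta chain of the peptide-loading molecule, with an adjusted p of 0.2. Its KO arrays were 12.17, 12.48 and 12.03 at 8 h and 11.72, 11.88 and 11.55 at 16 h, and its WT arrays 12.20, 12.43 and 12.15 and then 10.46, 10.40 and 10.41. The genotypes overlapped at 8 h and were apart at 16 h, the KO change being the smaller fall by 1.32 (SE 0.24).

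Others of the 8 genes with the smallest p were P2ry10, a lysophospholipid receptor gene, with a KO change of 0.09 and a WT change of -0.81, and Mzb1, an ER protein of B cells, with -0.64 and 0.22. Yars, which encodes tyrosyl-tRNA synthetase, had -0.51 in KO and 0.28 in WT cells. The remaining 4, Sh3bp4, Fndc10, Myoz3 and 4933427E11Rik, had a group mean under the filter level. None of these differences passed adjustment. Rcan1, a calcineurin inhibitor and known NFAT target, went from 8.95, 8.34 and 8.97 to 9.10, 9.57 and 9.32 in KO cells, a difference of 0.57 (limma adjusted p = 0.0746). In WT cells it rose by 1.57, from 9.57, 9.57 and 9.22 to 10.98, 11.37 and 10.74. The KO rise was the smaller, and the KO arrays lay below the WT arrays at both times. The difference between the changes did not pass adjustment over all genes (SE 0.26, limma adjusted p = 1), which does not show that the changes were equal.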

How the data were processed

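RNA of 24 arrays was compared by group as labelled, with 3 arrays for each genotype and time. MAS5 produced the signals, per the submitters' processing notes, which give no version. The deposited values are on a log2 scale and were used as the authors scaled them. The array type fixes which probe sets can be measured, and the number of arrays limits the precision.

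Probe sets above the 40th percentile of their own array in at least 3 arrays and with 1 gene symbol were kept, and the brightest stood for each gene, which gave 14318 genes. Of 667 called genes 426 had several probe sets, and 97 of these had one of opposite sign, called in 2 (Cds2 and Ppp2r5c). Differences were tested with limma 3.58.1 in R 4.3.3 (a mean for each of the 8 groups, 16 residual degrees of freedom, trended eBayes), with Benjamini-Hochberg adjustment over all genes and a call under 0.05. P-values set each difference against the spread between replicate arrays, pooled over the 8 groups and moderated across genes. SE is limma's. For a gene whose dimmer group averaged less than the 40th percentile, signals below it were raised to it and the change is given as a bound. The fit was tested on simulated data.

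Named genes are the 15 largest rises and falls without overlap, the 8 smallest p between genotypes, Nfatc1, Rcan1 and up to 4 called members per list and direction, of which the text gives a part. Other list members, Mcm6 and Cdk1 among them, were chosen after their values were seen. The 26 pathway and 14 marker lists, the members and the tests were chosen with earlier results of these data known. Promoters came from a RefSeq table on GRCm38.p6. Alternatives covered scaling, filter, low values, probe sets, replicate block, arrays in the fit, untrended eBayes, a 1.5-fold minimum and leaving out each array. Fits without KO replicate 2 at 8 and 16 h, without WT replicate 2, and the interferon motif were chosen after seeing the data.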

Additional observations from a re-analysis of the deposited data

How the results depend on the processing

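The KO count of 667 (343 higher, 324 lower) became 217 with arrays scaled to a common median (102 and 115), 1028 with every probe set on its own (515 and 513), 286 with only the arrays compared (153 and 133), 40 with a minimum of 1.5-fold (23 and 17) and 236 without KO replicate 2 at 8 and 16 h (113 and 123). Leaving out 1 array gave 380 to 604 (202 to 301 and 178 to 303). The WT count of 1110 (549 and 561) became 478 (149 and 329), 1677 (lower 919), 661 (349 and 312) and 92 (48 and 44) under the same first 4 settings, 447 without WT replicate 2 (166 and 281), and 624 to 997 without 1 array (277 to 470 and 347 to 527). The causes were not tested. Replicate numbers were not taken to pair the arrays in the main fit, since the labels do not say what a number marks. The deviations of same-numbered arrays at 8 and 16 h correlated at 0.099, 0.374 and 0.273 in KO and 0.064, 0.088 and 0.059 in WT cells. KO 8 h replicate 1 did not correlate better with its own number than with number 3 (0.099 each), while the other 5 correlated best with their own. Whether arrays of 1 number also resembled each other across genotypes was not tested. In 1 example, Rsad2 at 8 h, replicates 1, 2 and 3 had 11.44, 8.93 and 9.81 in KO cells. The same numbers had 11.15, 9.17 and 10.71 in WT cells. With the replicate number within each genotype as a fixed block the counts were 1507 (728 and 779) in KO and 2118 (1080 and 1038) in WT cells. As a random block they were 1243 (608 and 635) and 1837 (938 and 899). The count for the difference between genotypes was 1 in each, H2-DMb2 (adjusted p 0.0161 and 0.0231), and 0 in the other settings.

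Of the lists, replication kept 26 to 28 calls without 1 array. Mitosis (11 calls) had 6 with a common median, 4 with only the arrays compared, 3 without KO replicate 2 and 5 to 11 without 1 array. G1 genes (6) had 3, 2 and 2 in these settings and 3 to 6. Cholesterol (8) had 1, 3 and 2, and 4 to 9. Interferon (6) had 3 with a common median, 13 and 11 with the fixed and random block, 10 with only KO arrays, 3 without KO replicate 2, 10 without WT replicate 2 and 1 to 9 without 1 array. Quiescence (4) had 7 with each block and 3 to 4. MHC class II (3) had 7 and 6 with the blocks, 1 with only the arrays compared, and 3 to 4. The p53 targets (4) had 2 with only the arrays compared, 2 with only KO arrays, 1 without KO replicate 2, 2 without WT replicate 2, and 2 to 3. Of 97 named genes called, 34 kept direction and call in all 15 settings run on them, among them Mcm5, Cdc6, Rrm2, Ccne1, Ccnd2, Cxcr4, Il7r, Ccr9, Rsad2, Cr2, Cd86 and Bcl6. Signs turned only for genes near 0 or dim: P2ry10 (-0.02 without KO replicate 2), Fndc10 (-0.02 with a common median, -0.14 without KO replicate 2 at both times, and -0.06 to 0.12 without 1 array), Sparc (-0.10 without KO 8 h replicate 3) and Eif2s3y (0.09 with low values raised).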

Other observations

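Further genes fell from 8 to 16 h in KO cells as steeply as those of the main groups. Lztfl1, a ciliary transport gene, went from 11.57, 12.54 and 12.32 to 9.75, 9.76 and 10.09 (limma adjusted p = 1.52e-06), after an average of 9.87 at 0 h and 12.96 at 3 h, so that its 16 h mean of 9.87 equalled that at 0 h. Gng4, a G protein subunit, averaged 5.34 in unstimulated cells, peaked at 10.26 after 3 h, and stood at 8.26 at 8 h and 5.65 at 16 h. The 16 h mean of Gng4 was under the filter level, so that it fell by 2.34 or more. Of its 2 other probe sets 1 had a difference of opposite sign. Dnase1l3, a nuclease that digests chromatin, had 7.73, 7.94 and 7.87 at 8 h and 5.39, 2.51 and 4.68 at 16 h. It was then under the filter level, so that it fell by 2.00 or more. Without KO replicate 2 at both times, Gng4 and Dnase1l3 lost their calls (limma adjusted p 0.0748 and 0.0708), while Lztfl1 kept its call.

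Rises outside cell cycle genes included Tacc2, a centrosomal gene, which averaged 2.89 in unstimulated cells, 4.08 by 3 h, 7.58 at 8 h and 9.69 at 16 h (limma adjusted p = 0.00765 for the last step). Plpp1, a lipid phosphatase, went from 6.90, 7.72 and 7.42 to 8.99, 9.32 and 9.38 in KO cells, a difference of 1.88, and had 0.91 in WT cells (difference between genotypes 0.97, limma adjusted p = 1). Sema6d, a semaphorin, rose from 6.22, 6.13 and 5.78 to 8.42, 8.27 and 7.42. Without KO replicate 2 at both times, Tacc2 and Sema6d lost their calls (limma adjusted p 0.121 and 0.0559), while Plpp1 kept its call.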
